A study of Mus musculus with 2 samples.

Results

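The genes described here encode noncollagenous proteins of the cartilage matrix: aggrecan (Acan), the cartilage link protein (Hapln1), matrilins 1, 3 and 4 (Matn1, Matn3, Matn4), cartilage oligomeric matrix protein (Comp), epiphycan (Epyc) and chondroadherin (Chad). They were taken as every probe set of the array that the platform annotation assigns to exactly 1 gene, that gene being one of these 8. This gave 12 probe sets of 34945 that name 1 gene, and 8 genes of 18193. The genes were selected on their role in cartilage and with their signals and differences on these same 2 arrays known, so these values are given as a description.

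Signals came from 2 Affymetrix arrays, 1 per genotype, of biotin-labelled cRNA. The Sox11-null array was hybridised with RNA labelled as cerebral cortex of 1 Sox11(-/-) embryo, and the wild-type array with RNA labelled as cortex of 1 Sox11(+/+) littermate, both at E17.5, late in gestation, and both of C57BL/6 and 129 descent. Both embryos came from a mating of Sox11(+/-) parents, so the Sox11(-/-) embryo carried the null allele in every tissue and not in the cortex alone. Sox11 encodes a SoxC transcription factor. The study asked which genes of the developing cortex depend on it. With 1 embryo per genotype there was no replicate, no test was run, and each difference is one between 2 libraries.

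The libraries differed in more than the Sox11 allele. The 6 Sox11 probe sets kept 16.4% to 47.8% of the wild-type signal on the Sox11-null array. The extent of the deletion is not stated in the labels, so a probe set may lie outside it. The inactive X chromosome RNA Xist had signals of 155 on the Sox11-null array and 17505 on the wild-type array by its brightest probe set, and the Y-linked Uty had 617 on the Sox11-null array and 21.8 on the wild-type array, so the embryos differed in sex. None of the 8 cartilage matrix genes is X- or Y-linked. For beta-actin, the signal of the 3' control probe set over that of the 5' one, which rises as RNA breaks down, was 1.16 on the Sox11-null array and 1.78 on the wild-type array, and for Gapdh it was 0.816 on the Sox11-null array and 0.922 on the wild-type array. The part of sex and of RNA integrity in the differences below was not tested.

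Cartilage is a tissue in which chondrocytes sit in a matrix of collagen fibrils filled by aggrecan. Aggrecan carries many chondroitin sulfate chains and is held on hyaluronan by link protein, which gives cartilage its resistance to compression. Matrilins and Comp are multi-subunit adaptor proteins that connect collagen fibrils with proteoglycans, while epiphycan and chondroadherin belong to the small leucine-rich repeat proteins. The transcription factor Sox9, with Sox5 and Sox6, switches many of these genes on in chondrocytes. Some are not confined to cartilage, since aggrecan and link protein are also part of perineuronal nets of the brain, and Comp is made by tendon.

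Most of these cartilage genes gave signal in both libraries labelled as cortex. A signal counted as measured when it reached the array median on at least 1 array (177.4 for the Sox11-null array, 177.5 for wild type). Of the 8 genes, 6 were measured by their brightest probe set, and all 6 were above the median on both arrays. Matn3 lay between the 25th percentile (52.5 on the Sox11-null array and 52.9 on the wild-type array) and the median. Chad lay below the 25th percentile on both arrays. Signals of different probe sets depend on the probes as well as on the RNA, so genes are not ranked against each other.

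**Figure D1:**
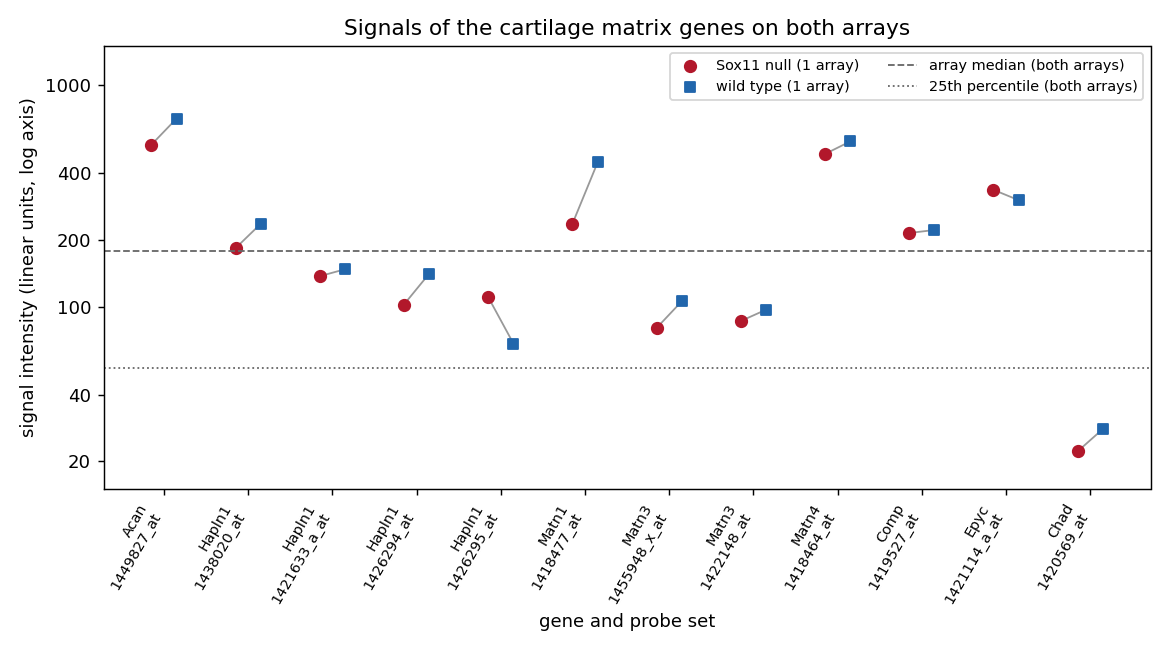
Signal intensity (linear units on a log axis) of each of the 12 probe sets on the Sox11-null array (circles) and the wild-type array (squares), 1 array each, with the array median and the 25th percentile as lines. For 10 of the 12 probe sets the Sox11-null signal was below the wild-type signal, with the widest gap at Matn1. For 1 probe set of Hapln1 and for Epyc it was above. These are signals before centring, and the same share over all probe sets was not taken. The 12 are not independent, since 4 are of Hapln1 and 2 of Matn3, so no common direction is read from this count. Only 6 of the 12 probe sets were above the median on both arrays.

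Matn1, which encodes a matrilin made almost solely by cartilage, was the member with the largest difference. Its probe set 1418477_at gave a signal of 236 on the Sox11-null array and 447 on the wild-type array. After centring on all measured genes this was a 1.87-fold lower signal in the Sox11-null library (log2 difference -0.90). Matn1 was the 1 measured member of 6 at least 1.5-fold lower, against 3.24% of all 12390 measured genes, and no member was 1.5-fold higher, against 3.07%. One gene among 6 is too few to compare with that share.

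The difference of Matn1 lay near the lower end of the central range in its group by level. Measured genes were put in 3 equal groups by level, 4130 genes each. In the lowest group, which holds Matn1, 6.8% were 1.5-fold lower or more. The central 95% of log2 differences in this group ran from -0.94 to 0.82, and in the middle group from -0.49 to 0.57. The lowest group spans geometric mean signals of 63.1 to 472, so it also holds genes dimmer than Matn1. Of these 4130 genes, 116 (2.81%) had differences of -0.90 or lower, as Matn1 did. Matn1 has a single probe set on this array, so a second measure of the same RNA is lacking.

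**Figure D2:**
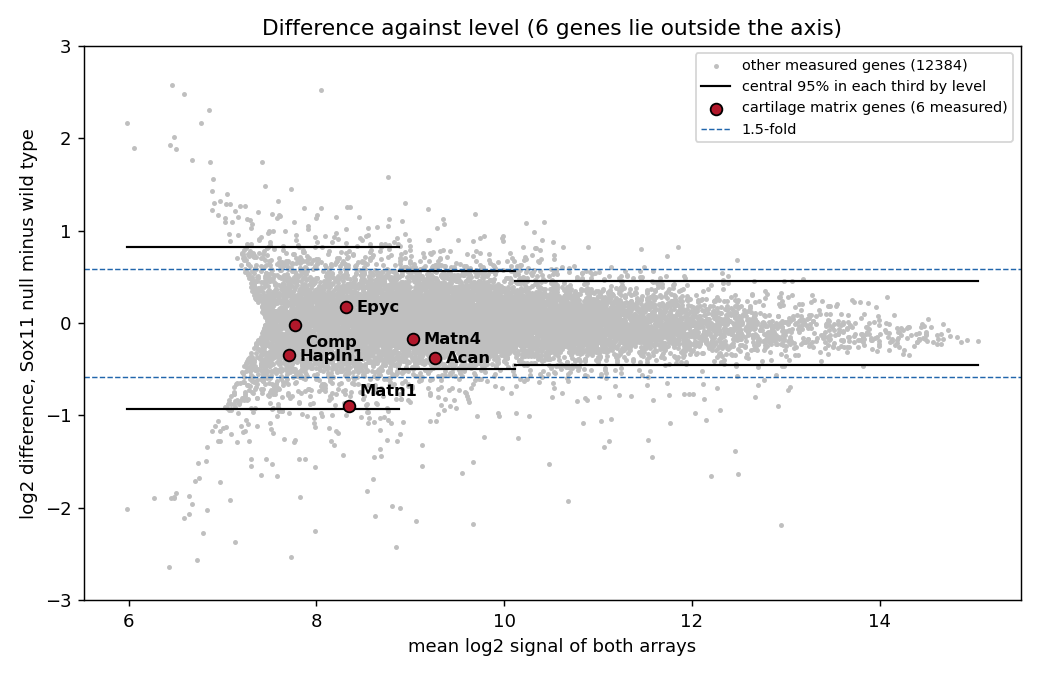
Log2 difference (Sox11 null minus wild type) against the mean log2 signal of both arrays for each measured gene by its brightest probe set, with the 6 measured cartilage matrix genes as large labelled points. Black lines bound the central 95% of differences in each of 3 equal groups by level, and all 6 lie between them, Matn1 (-0.90) close to the lower line at -0.94.

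The other matrilins differed less between the libraries. Matn4, which encodes the matrilin with the widest tissue range, brain included, had a signal of 488 on the Sox11-null array and 556 on the wild-type array (log2 difference -0.17). Matn3, a matrilin of growing cartilage, had 80.0 on the Sox11-null array and 105.7 on the wild-type array with 1455948_x_at, and 86.0 on the Sox11-null array and 96.8 on the wild-type array with 1422148_at. Both Matn3 probe sets were thus lower in the Sox11-null library (log2 differences -0.38 and -0.15), but under the array median in both.

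Aggrecan and its link protein, each by its brightest probe set, had lower signals in the Sox11-null library, within 1.5-fold. Acan gave a signal of 537 on the Sox11-null array and 705 on the wild-type array (log2 difference -0.37). It lies in the middle group by level, where the central 95% of differences ran from -0.49 to 0.57. Hapln1 gave 183 on the Sox11-null array and 236 on the wild-type array with its brightest probe set, 1438020_at (-0.35).

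The 4 Hapln1 probe sets did not show 1 direction. With 1426294_at the signals were 102 on the Sox11-null array and 141 on the wild-type array (log2 difference -0.44), and with 1421633_a_at they were 137 on the Sox11-null array and 147 on the wild-type array (-0.084). With 1426295_at the Sox11-null signal was the higher one, 110.4 against 68.1 in wild type (0.72). These 3 probe sets were below the array median on both arrays. The mean over the 4 probe sets was -0.039 ± 0.53 (SD, 4 probe sets on 1 array pair). No direction can therefore be given for Hapln1. Over all 5155 genes with several measured probe sets, the pooled SD of the differences between probe sets of 1 gene was 0.39, which exceeds the size of every measured member's difference except that of Matn1.

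Comp, the pentameric thrombospondin of cartilage and tendon, was at 215 on the Sox11-null array and 222 on the wild-type array (log2 difference -0.025). Epyc, a proteoglycan of the growth plate, was the 1 measured member with a higher signal in the Sox11-null library, at 336 against 302 in wild type (0.18). Both differences lie well inside the central range of the lowest group. Chad, a leucine-rich repeat protein to which chondrocytes bind, was at 22.2 on the Sox11-null array and 28.0 on the wild-type array, under the 25th percentile of both, so no fold is given for it.

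Over the 6 measured members the median log2 difference was -0.26, with the arrays centred so that the median over all measured genes was 0. A difference below 0 was seen in 5 of the 6, against 50.0% of all measured genes. That 50.0% follows from the centring, and 6 genes are too few to compare with it. The 5 include Hapln1, for which no direction can be given, and Comp, at only -0.025. When all probe sets of a gene were averaged, the median was -0.10. In bulk tissue, fewer cells of a type and less RNA per cell cannot be told apart.

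Promoter sequences of RefSeq (GRCm38.p6, 250 bases before to 50 after the start) were available for 7 of the genes, in 9 windows, Matn4 and Epyc having 2 each. They are shown because the allele removes a Sox protein, and Sox proteins bind short A/T-rich sites. The windows were searched on both strands for AACAAT and ACAAAG, whose matches cannot share bases with each other. The sequences below are those of the member with the largest difference (Matn1, chr4:130944135-130944434, plus strand), of Acan (chr7:79052976-79053275, plus strand) and of both annotated starts of Epyc, the member with a higher Sox11-null signal (chr10:97643818-97644117 and chr10:97646853-97647152, plus strand), 5′ to 3′, with the matched letters in capitals.
Matn1: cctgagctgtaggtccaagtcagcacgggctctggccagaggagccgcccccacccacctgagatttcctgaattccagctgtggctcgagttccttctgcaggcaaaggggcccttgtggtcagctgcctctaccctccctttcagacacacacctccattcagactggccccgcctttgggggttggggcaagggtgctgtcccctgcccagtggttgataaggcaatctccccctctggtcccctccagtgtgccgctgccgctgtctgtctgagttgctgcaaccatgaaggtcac
Acan: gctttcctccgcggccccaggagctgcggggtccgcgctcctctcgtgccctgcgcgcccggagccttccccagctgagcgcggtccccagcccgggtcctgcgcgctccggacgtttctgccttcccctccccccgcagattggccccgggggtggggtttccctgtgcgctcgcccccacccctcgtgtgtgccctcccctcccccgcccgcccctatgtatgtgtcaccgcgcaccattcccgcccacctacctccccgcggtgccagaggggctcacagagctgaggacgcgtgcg
Epyc, first start: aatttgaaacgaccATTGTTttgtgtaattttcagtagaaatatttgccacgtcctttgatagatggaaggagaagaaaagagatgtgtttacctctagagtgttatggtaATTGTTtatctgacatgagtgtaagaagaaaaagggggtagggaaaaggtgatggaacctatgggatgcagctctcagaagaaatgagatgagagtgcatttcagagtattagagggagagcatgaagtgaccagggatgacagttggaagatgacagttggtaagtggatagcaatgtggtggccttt
Epyc, second start: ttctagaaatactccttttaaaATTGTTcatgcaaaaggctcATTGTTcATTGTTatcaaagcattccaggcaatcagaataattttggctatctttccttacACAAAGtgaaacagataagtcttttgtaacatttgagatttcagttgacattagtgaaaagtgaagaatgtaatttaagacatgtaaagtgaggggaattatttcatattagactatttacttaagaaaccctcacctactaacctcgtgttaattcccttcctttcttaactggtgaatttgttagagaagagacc

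Only the Epyc windows held the searched letters among these genes. The first had AACAAT 2 times, with the match starting at positions -236 and -139 from the transcription start, both on the opposite strand. The second had AACAAT 3 times, at -228, -208 and -201 on the opposite strand, and ACAAAG 1 time, at -147 on the same strand. The other 7 windows held neither. Of all 32851 promoters of the same length in the table, 10.7% held AACAAT, 18.7% held ACAAAG and 27.0% held at least 1 of them. Base composition differs between the windows: the GC content was 40.3% and 32.3% in Epyc, 61.3% in Matn1 and 74.0% in Acan, against a median of 52.7% over all promoters. The letters are a description of the windows and say nothing on binding.

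Genes that work with these proteins in cartilage were set beside them in lists, chosen with earlier results of these arrays known. Cartilage collagens, which form the fibrils that matrilins and Comp bind, were all within 1.5-fold (7 measured of 8), with a median log2 difference of -0.24. The brightest, Col11a1, had 2521 on the Sox11-null array and 2286 on the wild-type array (0.16, and 0.022 by its other measured probe set), and Col9a1 had 2038 on the Sox11-null array and 2531 on the wild-type array (-0.29, but 0.26 by its other measured probe set). Col2a1, the main fibril collagen of cartilage, was at 1573 on the Sox11-null array and 1970 on the wild-type array (-0.30). Col9a3, which joins Col9a1 and Col9a2 in type IX collagen, was at -0.24, and its other measured probe set gave -1.22. Col10a1, the collagen of hypertrophic chondrocytes, was under the 25th percentile on both arrays.

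The regulators of chondrocytes were also within 1.5-fold, 7 of 7 measured, with a median of -0.24 by the brightest probe sets. The median was -0.074 with each gene averaged over its probe sets, -0.072 with no filter and -0.098 when _s_at and _x_at probe sets were left out. Sox9 was at 445 on the Sox11-null array and 330 on the wild-type array (log2 difference 0.45, and 0.0089 by its other measured probe set). Sox5 was at 297 on the Sox11-null array and 419 on the wild-type array (-0.48, and 0.56 by its other probe set), and Sox6 at 769 on the Sox11-null array and 934 on the wild-type array (-0.26, and -0.16 over its others). The brightest genes of the list, Trps1 and the growth factor receptor gene Fgfr3, had differences of -0.30 and -0.057, and their other measured probe sets averaged -0.19 and 0.55. The probe sets of Sox5 and of Fgfr3 thus pointed in opposite directions.

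Other genes enriched in cartilage included 2 that were at least 1.5-fold lower, of 13 measured, and none higher. Over all measured genes 3.24% were lower and 3.07% higher, and 13 genes are too few to compare with these shares. Susd5 had a signal of 293 on the Sox11-null array and 545 on the wild-type array (log2 difference -0.88). Ucma, which encodes a secreted protein of the growth plate, had 129 on the Sox11-null array and 204 on the wild-type array (-0.64). Its Sox11-null signal was under the array median. The list median was -0.059. The remaining matrilin gene, Matn2, which is expressed in many connective tissues, was at 3553 on the Sox11-null array and 3370 on the wild-type array (0.096), and Otor, a cartilage and inner ear protein gene, at 1383 on the Sox11-null array and 1441 on the wild-type array (-0.039).

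Families related to the members by structure held 1 gene beyond 1.5-fold by its brightest probe set, Thbs1. The small leucine-rich proteoglycans, relatives of Epyc and Chad, were all within 1.5-fold (11 measured, median 0.014), with Dcn at 0.074 (-0.12 by its other measured probe set) and Lum at 0.19. The brain relatives of aggrecan and link protein and the tenascins were within it too (6 measured, median 0.0094), with Vcan at 0.0016 and Tnc at 0.064, but their other measured probe sets averaged 0.51 and 0.50, and the list median was 0.11 with each gene averaged over its probe sets. Among the 4 thrombospondins, relatives of Comp (median 0.16), Thbs1 was higher, with 1086 on the Sox11-null array and 639 on the wild-type array (0.78, and 1.27 by its other measured probe set), and Thbs2 was at 0.073. The other 3 were within 1.5-fold.

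Enzymes that build or cut the aggrecan layer held no measured gene beyond 1.5-fold in either direction by its brightest probe set. By their other measured probe sets, Papss2 averaged 1.16 and Mmp14 0.76, and B3gat3 was at -1.11. Their brightest probe sets gave -0.027, 0.15 and 0.081. For the synthesis of chondroitin sulfate, the chains that aggrecan carries, 14 genes were measured with a median of 0.066, and the brightest were the sulfate donor enzyme Papss1 (0.46) and the chain polymerase Chsy1 (-0.075). For the proteinases of cartilage matrix and their inhibitors, 13 genes were measured with a median of 0.13, and the brightest were Timp2 (0.18) and Mmp2 (0.041). Over all 8 lists, 2 of 75 measured genes (2.67%) were lower by 1.5-fold or more and 1 (1.33%) higher, against 3.24% and 3.07% of all measured genes.

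**Figure D3:**
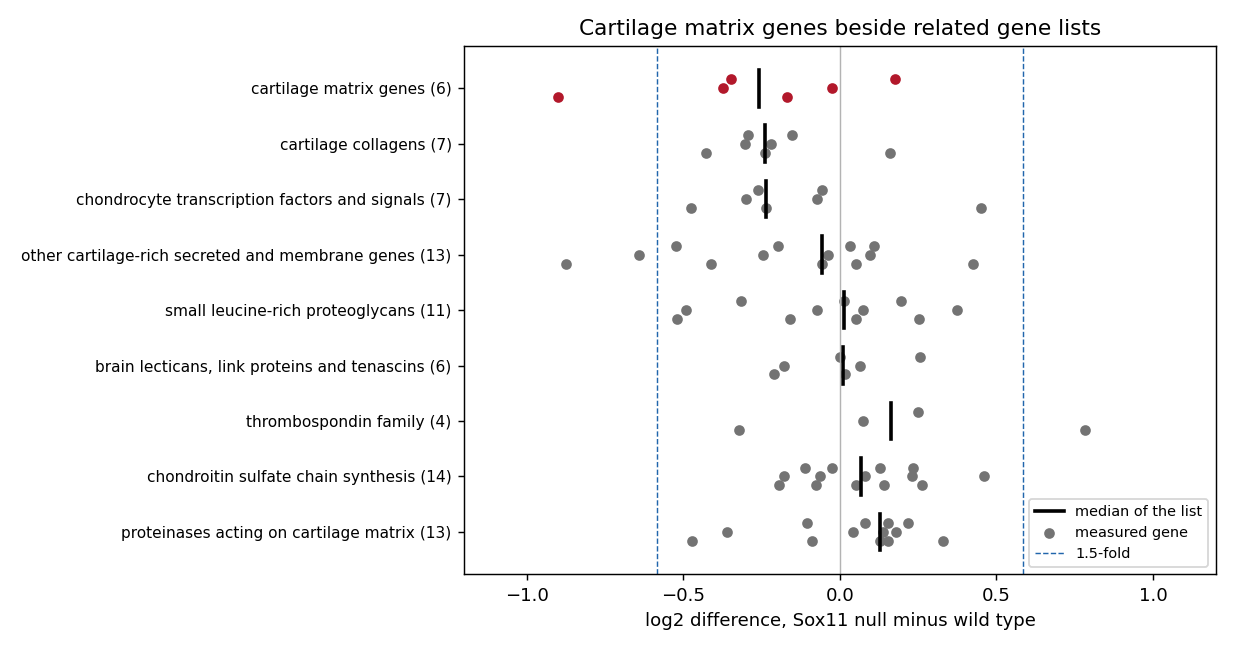
Log2 difference (Sox11 null minus wild type) of each measured gene, by its brightest probe set, for the cartilage matrix genes in the top row and 8 related lists below, with the number measured in parentheses and the median as a black bar. The medians of the cartilage matrix genes (-0.26), the cartilage collagens (-0.24) and the chondrocyte regulators (-0.24) lie below 0 (with each gene averaged over its probe sets -0.10, -0.22 and -0.074), and those of the chondroitin sulfate (0.066) and proteinase (0.13) lists above it.

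Markers of other tissues were set beside the members, since cartilage lies outside the brain. No cell type was assigned from these lists, and their signals are not taken to come from the named tissue alone. All sums of list signals are taken before centring. The 7 genes of a chondrocyte list were above the median of both arrays and within 1.5-fold by their brightest probe sets. All 7 are also in the related lists above, so these are the same values again. Their summed signal was 5979 on the Sox11-null array and 7190 on the wild-type array, or 83.2% of wild type. The 2 brightest, Col9a1 (-0.29) and Col2a1 (-0.30), weigh most in it. Other measured probe sets gave 0.26 for Col9a1, 0.56 for Sox5, 0.0089 for Sox9 and -0.16 for Sox6. The 8 cartilage matrix genes summed to 2098 on the Sox11-null array and 2602 on the wild-type array. For osteoblast and bone genes the sum was 55581 on the Sox11-null array and 54078 on the wild-type array. The 7 measured ones were within 1.5-fold by their brightest probe sets, but Ibsp, at 0.073, gave 0.65 by its other measured probe set. For tendon, a tissue that also makes Comp, the sum was 20680 on the Sox11-null array and 18753 on the wild-type array. The tendon list held 1 gene of 7 beyond 1.5-fold, Scx, at 290 on the Sox11-null array and 105 on the wild-type array (1.48). Scx had no other measured probe set, and its wild-type signal was under the array median. The other 6 tendon genes were within 1.5-fold, with Tnmd at 0.013 and Mkx at -0.028. Without Col1a1, a bright collagen gene that both lists hold, both sums before centring were lower on the Sox11-null array. The bone sums were then 39508 on the Sox11-null array and 40053 on the wild-type array. Their log2 ratio of -0.020 has the size of the 0.020 by which centring raises the Sox11-null signals, so no direction is given for bone. The tendon sums were 4607 on the Sox11-null array and 4728 on the wild-type array (log2 ratio -0.037).

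Skeletal muscle genes summed to 100821 on the Sox11-null array and 98340 on the wild-type array, with 8 of 8 above the median of both arrays and within 1.5-fold. Of the epidermis genes, 4 of 7 were at least 1.5-fold lower, against 3.24% of all measured genes. The list summed to 21166 on the Sox11-null array and 38764 on the wild-type array. Krt10, a keratin of the layers above the basal one, was at 3229 on the Sox11-null array and 10189 on the wild-type array (-1.64), and Ivl was at -1.47, Krt1 at -1.38 and Lor at -0.69. The other 3 were within 1.5-fold, with Krt5 at 0.11, Trp63 at -0.083 and Krt14 at -0.39 (-0.15 over its other measured probe sets). Meningeal and fibroblast genes summed to 54690 on the Sox11-null array and 55663 on the wild-type array, and Foxc2 was the 1 of 8 beyond 1.5-fold (0.64). No marker list stood at 0 on either array. The part of differing tissue content in the cartilage gene differences was not tested.

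Genes of the labelled tissue gave signal as well. Of 6 cortical neuron genes with a probe set of their own, 4 were above the median of both arrays, with Neurod6 at 2723 on the Sox11-null array and 3019 on the wild-type array (-0.13) and Bcl11b at -0.10 (0.23 over its other measured probe sets). The 5 measured ones were within 1.5-fold. Of the 8 radial glia and progenitor genes, Hes5 was lower (358 on the Sox11-null array and 640 on the wild-type array, -0.82, with -0.23 by its other probe set). Eomes was just within 1.5-fold at 0.58, and its other measured probe set gave 1.25. The brightest, Fabp7 and Vim, were at -0.21 and 0.25. The 6 measured genes of oligodendrocyte precursors and astrocytes were within 1.5-fold by their brightest probe sets, with Pdgfra at 0.26 and Olig1 at -0.22. Aqp4 was at -0.11, but 0.61 by its other measured probe set.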

How the data were processed

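Each array gave 1 signal per probe set, deposited by the authors as a linear intensity. The submitters' processing notes name Affymetrix Expression Console, without its summary algorithm, version or genome build. Each array's mean after trimming 2% at each end was 500.002 over 45101 probe sets, as scaling to a common target gives. The number of arrays limits the precision.

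The 64 control probe sets were left out. Gene numbers were matched to current symbols in a RefSeq table of GRCm38.p6 (34741 of 34945 single-gene probe sets matched). Where a gene had several probe sets, the brightest by mean log2 signal stood for it. A gene counted as measured when that signal reached the array median on at least 1 array (12390 genes). The Sox11-null log2 signals were raised by 0.020 to bring the median difference over measured genes to 0, and signals below the 25th percentile were set to it. Differences are Sox11 null minus wild type. Counts at fixed folds of 1.5 replace a test. The script was tested on simulated data.

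The genes and lists were chosen with earlier results of these data known. Named list genes are those beyond 1.5-fold (at most 4 each way) and the 2 brightest of each related list and of each list of cortical genes. In the lists of other tissues the 2 brightest were not all named. Col2a1, Col9a3, Col10a1, Sox9, Sox5, Sox6, Matn2 and the chromosomal neighbours of the members were named for their roles or positions after their values were seen. Krt5, Krt14, Trp63, Tnmd, Mkx, Papss2, B3gat3, Mmp14, Neurod2, Eomes, Aqp4 and Ibsp were also named after their values were seen. Alternatives were 3 other scalings, 2 floors, 2 filters and 2 ways of treating several probe sets. Computation used Python 3.11.15, numpy 2.4.6, pandas 2.3.3 and statsmodels 0.14.6.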

Additional observations from a re-analysis of the deposited data

How the results depend on the processing

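The members and lists were recomputed under 9 alternatives. The count of members at least 1.5-fold lower was 1, Matn1, under 8 of them and 0 with the filter at the 75th percentile of each array, where Acan was the 1 member still measured. The count of members 1.5-fold higher was 0 under all 9. The median of the measured members ranged from -0.37 (that filter) to -0.10 (all probe sets of a gene averaged). Matn1 ranged from -0.95 to -0.90 under the 8 alternatives that kept it. Comp was at 0.013 with the loess trend removed and below 0 in 7 others. Hapln1 was at -0.039 with all its probe sets averaged. Chad and Matn3 passed only with no filter, at -0.011 (both signals at the floor) and -0.38. Of the list medians, that of the collagens ranged from -0.29 to -0.22, that of the chondrocyte regulators from -0.26 to -0.072, that of the thrombospondins from 0.13 to 0.17, that of the chondroitin sulfate list from 0.0026 to 0.16 and that of the proteinases from 0.074 to 0.14. The medians of the other 3 lists changed sign, between -0.12 and 0.0099 (other cartilage genes), -0.022 and 0.078 (small leucine-rich proteoglycans) and -0.023 and 0.11 (brain relatives). The sums of the bone and tendon lists without Col1a1 were chosen after seeing the data. No paired analysis was possible because each genotype has 1 array. Signals near the array median are dim, and 4 of the 6 measured members lie in the lowest group by level, where differences between these arrays are widest.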

Other observations

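Several of the cartilage matrix genes lie next to genes of related matrix proteins. By gene order in the RefSeq table, Acan adjoins Hapln3, a link protein gene, which had a signal of 217 on the Sox11-null array and 184 on the wild-type array (log2 difference 0.26, against -0.37 for Acan). Hapln1 adjoins Vcan, a large proteoglycan of the aggrecan family, at 3585 on the Sox11-null array and 3631 on the wild-type array (0.0016, and 0.51 over its other measured probe sets). Epyc lies in a row with Kera, Lum and Dcn, small leucine-rich proteoglycans like itself. Kera, a proteoglycan of cornea and tendon, was at 632 on the Sox11-null array and 920 on the wild-type array (-0.52), while Lum (0.19), Dcn (0.074, but -0.12 by its other measured probe set) and Epyc (0.18) had positive differences.

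The neighbours of the matrilin genes form a repeated pattern, a syndecan gene beside each and, for Matn1 and Matn3, a Laptm gene as well. The syndecans are membrane proteoglycans. Sdc3, near Matn1, was at 2428 on the Sox11-null array and 2243 on the wild-type array (0.13, and 0.43 over its other measured probe sets), and Laptm5, next to Matn1, at 796 on the Sox11-null array and 977 on the wild-type array (-0.28). Sdc1, near Matn3, was at 1644 on the Sox11-null array and 1971 on the wild-type array (-0.24, but 0.24 over its others), and Laptm4a at 10851 on the Sox11-null array and 10284 on the wild-type array (0.097). Sdc4, near Matn4, was at 475 on the Sox11-null array and 600 on the wild-type array (-0.32). None of these neighbours was beyond 1.5-fold by its brightest probe set.

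Over the 3 protein-coding genes on each side of the 8 genes, 39 of 48 were measured, with a median of 0.0016. Of these, 18 had a difference below 0, against the 50.0% of all measured genes that centring gives. The 1 neighbour at least 1.5-fold lower was Slpi, a secreted proteinase inhibitor of epithelia next to Matn4. It was at 189 on the Sox11-null array and 516 on the wild-type array (-1.43). No neighbour was 1.5-fold higher. Over all measured genes 3.24% were lower and 3.07% higher.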
